A study of Mus musculus with 2 samples.

Results

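Of 26584 m6A peaks called in the mouse uterus on gestational day 4, 491 had their summit inside the span of exactly 1 autosomal gene that RefSeq lists as a pseudogene. They lay in 388 genes: 400 peaks in 326 genes of the biotype pseudogene and 91 peaks in 62 genes of the biotype transcribed_pseudogene. The choice used position and annotation alone, and no measured value. Pseudogenes are copies of genes that have lost the ability to make the original protein. Most in the mouse genome are processed copies, made when an mRNA was reverse transcribed and inserted elsewhere, so they lack introns and lie far from the gene they came from (the parent). Others are duplicated stretches of a chromosome or genes disabled in place, and some are still transcribed. N6-methyladenosine (m6A) is a methyl group that cells add to adenosines within mRNA, mainly in the motif known as DRACH and often near the stop codon and in long exons, and it affects splicing, export, translation and decay.

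In the assay, methylated RNA immunoprecipitation sequencing, fragments pulled down by an antibody against m6A (IP) are compared with fragments that were not selected (input). The labels give 1 IP sample and 1 input sample, both of polyA RNA from wild-type females, 6 to 8 weeks old, mated with fertile males, the day of the plug counted as day 1. The cell type is labelled mixed, and whether several animals were pooled is not given in the sources used here. There was no replicate, so no test across animals was possible, and every interval below covers counting error only. The names of all peaks carry a run name with "D8NegIP" and "Posinput", which does not match the labelled day, and what served as the background is not settled. Of 12 genes known for uterine epithelium, glands, stroma, muscle or vessels, 10 had a peak of their own, among them Pgr and Esr1, the progesterone and oestrogen receptors. The other 2 were Hoxa11, whose 2 peaks lay where its span overlaps another gene's, and Lif, with none. Over all autosomal protein-coding genes the share with a peak was 42.1%, and 54.9% at spans of 20 kb or more. No genes known for another tissue were set beside the 12.

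Each peak has a fold enrichment, which is the number of IP fragments over the summit (the pileup) plus 1, divided by the background expected there plus 1. In this kind of assay the background usually reflects how much of the RNA was present before selection, and here its source is not settled (above). Where copies of a gene are nearly identical, a read can be placed on any of them, and how the authors treated such reads is not given in the sources used here. Each value of a pseudogene is therefore a value of reads placed there.

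None of the 388 genes has a start listed in the RefSeq promoter table (32851 windows of 27025 genes, build GRCm38.p6), but 3 of their peaks reached into the window of another gene. The sequence under a pair of these peaks is shown because the summits lay 152 and 12 bases before the start of the neighbouring gene. The peak of Gm12184 (chr11:48825872-48826330, fold enrichment 6.59) covers the stretch chr11:48825888-48826137 on the plus strand, directly before the start of Trim7, and the peak of Gm11427 (chr11:83254176-83254423, fold enrichment 11.1) covers chr11:83254265-83254423, directly before the start of Gm38924 on the minus strand. Capitals mark GGAC, the core of the usual m6A motif, or its reverse complement GTCC.
Gm12184 peak before Trim7: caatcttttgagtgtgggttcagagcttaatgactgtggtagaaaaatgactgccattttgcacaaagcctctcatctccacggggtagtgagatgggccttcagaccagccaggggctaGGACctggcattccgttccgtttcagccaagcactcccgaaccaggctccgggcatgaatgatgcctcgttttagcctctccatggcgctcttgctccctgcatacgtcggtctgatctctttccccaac
Gm11427 peak before Gm38924: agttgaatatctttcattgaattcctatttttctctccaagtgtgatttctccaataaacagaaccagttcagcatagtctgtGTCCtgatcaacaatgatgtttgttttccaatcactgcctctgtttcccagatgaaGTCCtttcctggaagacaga
The first sequence holds 1 GGAC on the strand shown and no GGACT on either strand, and its summit is base 99. The second holds 2 GGAC on the other strand, 1 of them within GGACT, and its summit is base 148, 12 bases before the start. Over the same stretch of all promoters, 82.3% held GGAC and 38.9% held GGACT on either strand for the first window, and 68.0% and 26.9% for the second, so these matches were common ones.

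Another peak covered part of a microRNA hairpin. The peak of Gm4149 (chr13:75644796-75645101, fold enrichment 14.3, interval 9.58 to 20.5, pileup 27, background 0.961) overlapped 56 of the 96 bases of the hairpin of Mir682, which lies at chr13:75645046-75645141 on the plus strand. The RefSeq hairpin follows, with the bases inside the peak in capitals.
Mir682 hairpin: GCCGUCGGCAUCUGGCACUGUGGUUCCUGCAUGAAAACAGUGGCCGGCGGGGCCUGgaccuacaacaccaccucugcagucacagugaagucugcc
The summit lay outside the hairpin, at base 108 of a Gm4149 span of 364 bases. The peak list gives no strand, so the value is not tied to either RNA.

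The pseudogene peaks had a median fold enrichment close to that of peaks in protein-coding genes, with fewer fragments and a lower background. The median was 7.38 (middle range 5.55 to 10.3, lowest 2.58, highest 48.6), beside 7.32 for 20527 peaks in protein-coding genes, 6.12 for 691 peaks in long non-coding RNA genes and 6.32 for 2027 peaks outside every gene span. The median pileup was 14 fragments (8 to 26) in pseudogenes and 20 (12 to 33) in protein-coding genes. The median background was 0.769 (0.310 to 1.73) in pseudogenes and 1.69 (0.786 to 2.88) in protein-coding genes, and 0.577 in long non-coding RNA genes. Peaks in transcribed pseudogenes (median fold enrichment 7.55, background 0.769) and in other pseudogenes (7.30 and 0.769) lay close together. These are medians of 1 peak list, and no spread between animals stands behind them. The order of the groups depends on the 1 added to both terms of the ratio: pileup over background alone had a median of 19.1 in pseudogenes, 13.0 in protein-coding genes, 16.9 in long non-coding RNA genes and 22.9 outside spans. Among peaks with a pileup of at least 10, the median fold enrichments were 8.81, 8.00, 7.99 and 8.88.

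**Figure D1:**
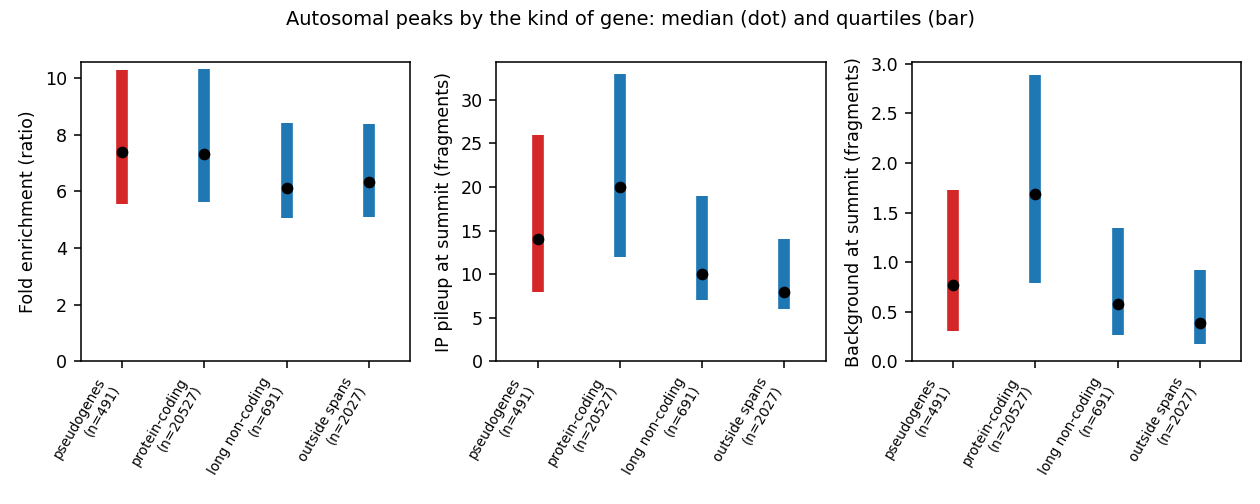
Fold enrichment (left, a ratio), IP pileup (middle, fragments) and background (right, fragments) at the summit of autosomal peaks, by the kind of gene that holds the summit. Dots are medians and bars run between the quartiles; the pseudogene bar of fold enrichment (5.55 to 10.3) covers nearly the same range as the protein-coding one, while its pileup and background sit lower.

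A fold enrichment of at least 10 was reached by 132 of the 491 pseudogene peaks (26.9%, 95% Wilson interval 23.2 to 31.0), beside 25.8% of all autosomal peaks, a share that lies inside that interval. The same share was 27.3% in protein-coding genes, 16.4% (13.8 to 19.3) in long non-coding RNA genes and 16.3% outside gene spans. Of the pseudogene peaks, 407 (82.9%, 79.3 to 86.0) had a −log10 q of at least 5, a stricter limit than the authors' lowest value of 1.31, beside 85.1% of all autosomal peaks. Shallow summits were more frequent than in protein-coding genes: a pileup under 10 was found in 154 pseudogene peaks (31.4%, 27.4 to 35.6), in 15.7% (15.2 to 16.2) of protein-coding peaks, in 20.6% of all autosomal peaks, in 46.3% of long non-coding RNA peaks and in 57.7% of those outside spans. A background under 1 fragment was found at 293 pseudogene summits (59.7%, 55.3 to 63.9), at 32.4% of the protein-coding ones, at 38.2% of all autosomal ones, at 66.3% in long non-coding RNA genes and at 79.1% outside spans. Peaks were narrow in both, with a median width of 316 bp in pseudogenes and 334 bp in protein-coding genes.

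Set side by side at like background, the 2 kinds of peak stayed close. Where the background was under 0.5, the median fold enrichment was 6.81 in 187 pseudogene peaks, 6.42 in protein-coding genes, 5.87 in long non-coding RNA genes and 5.96 outside spans. Between 0.5 and 1 the medians were 7.63 in pseudogenes and 7.61 in protein-coding genes, against 6.24 in long non-coding RNA genes. Between 1 and 2 they were 7.60 and 7.67, and between 2 and 4 they were 7.50 and 7.59. At a background of 8 or more only 15 pseudogene peaks remained, with a median of 5.12, beside 5.58 in protein-coding genes.

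**Figure D2:**
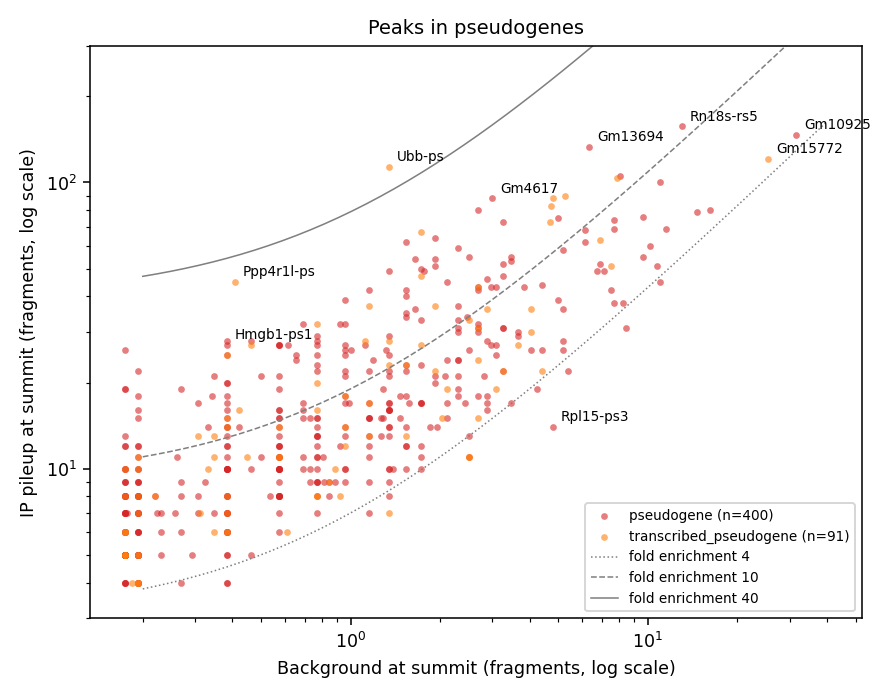
IP pileup against background at the summit of each of the 491 pseudogene peaks (fragments, both axes on a log scale), coloured by RefSeq biotype; the curves join equal fold enrichments of 4, 10 and 40. Most points lie between the curves for 4 and 10, 14 lie below a fold enrichment of 4, and Ubb-ps stands alone above 40.

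Few pseudogenes had a peak at all. A peak was found in 388 of 9319 autosomal pseudogenes (4.16%, 3.78 to 4.59), beside 20.4% of all autosomal genes, 42.1% of protein-coding genes and 3.78% (3.46 to 4.13) of long non-coding RNA genes. Those listed as transcribed had one in 62 of 435 (14.3%, 11.3 to 17.9), and the others in 326 of 8884 (3.67%, 3.30 to 4.08), intervals that do not meet. The share rose with the length of the span, from 1.63% of pseudogenes under 0.5 kb to 4.76% at 1 to 2 kb, 8.25% at 5 to 20 kb and 15.2% at 20 kb or more. At 0.5 to 1 kb, the length class with the most pseudogenes (3481), the shares were 2.87% (2.37 to 3.48) of pseudogenes and 2.89% (2.11 to 3.96) of protein-coding genes. In this class alone were the 2 shares close. Under 0.5 kb a peak was found in 1.63% (1.12 to 2.36) of pseudogenes and 8.57% (4.57 to 15.5) of protein-coding genes. Protein-coding genes of 1 to 2 kb had a peak in 15.3% (13.1 to 17.8) and transcribed pseudogenes of that length in 9 of 77 (11.7%, 6.27 to 20.7), which overlap. At 20 kb or more the shares were 30.8% (20.9 to 42.8) of transcribed pseudogenes, 10.3% (6.83 to 15.2) of other pseudogenes, 6.89% of long non-coding RNA genes and 54.9% of protein-coding genes. In a bulk tissue, fewer cells that make an RNA and less RNA per cell cannot be told apart, and neither can low expression and lack of the mark where a gene has no peak.

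**Figure D3:**
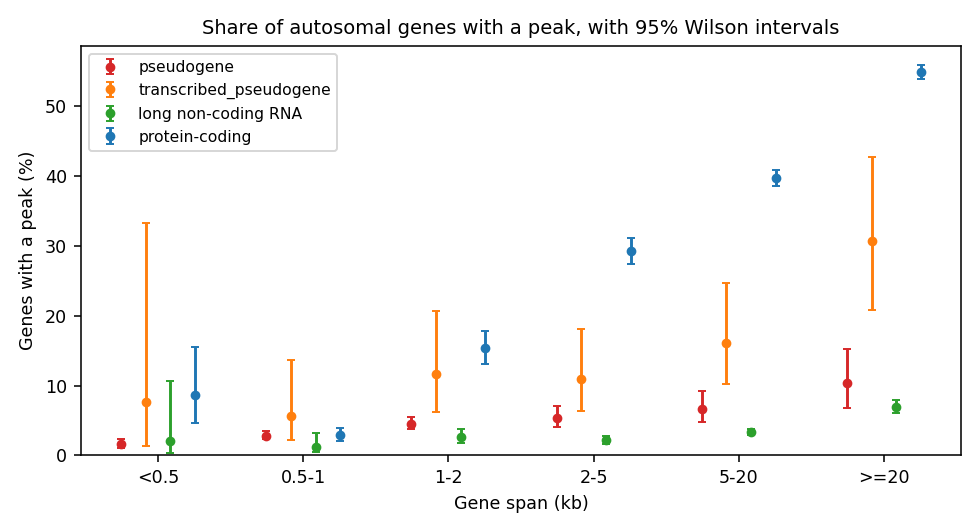
Share of autosomal genes with at least 1 peak (percent) by gene span (kb), for the 2 pseudogene biotypes, long non-coding RNA genes and protein-coding genes; bars are 95% Wilson intervals. In each bin the transcribed pseudogenes have a higher share than the other pseudogenes, reaching 30.8% at 20 kb or more. The intervals of these 2 biotypes lie apart at 1 to 2 kb, 5 to 20 kb and 20 kb or more, and overlap in the other bins.

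Most pseudogenes with a peak had a single one: 322 genes had 1, 45 had 2, 14 had 3, and 7 had 4 or more. The chromosomes with the most were 4 (47 peaks), 2 (39) and 8 (38), while 16 had 7. These chromosomes hold 593, 673, 420 and 290 pseudogenes. Of all peaks on each, the pseudogene peaks were 2.93%, 1.81%, 2.66% and 0.758%, and the highest such share was on 13 (3.41%). Most members carry no name that points to a parent: 289 of the 388 genes are numbered predicted genes (Gm symbols), 79 are named copies, 9 carry the name of a cDNA clone and 11 have another symbol. Clone-named genes had a peak in 9 of 55 (16.4%, 8.86 to 28.3), predicted genes in 289 of 7574 (3.82%, 3.41 to 4.27). Named copies had one in 5.12% and genes with another symbol in 7.53%, beside 4.16% of all autosomal pseudogenes. These kinds differ in length: the median span over peaks was 34090 bp for clone-named and 1788 bp for predicted genes. The shares were not compared at like span.

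By fold enrichment, the strongest of the 491 peaks was in Ubb-ps, a transcribed copy of the polyubiquitin gene Ubb, which encodes ubiquitin, the tag that marks proteins for degradation. Its peak (chr14:46083918-46084708) was 791 bp wide in a span of 931 bp, with 113 IP fragments over a background of 1.35, a fold enrichment of 48.6 (interval 40.1 to 58.3) and a −log10 q of 166. Next came Ppp4r1l-ps, a transcribed pseudogene of the protein phosphatase 4 regulatory subunit family, with 45 fragments over 0.408 and a fold enrichment of 32.7 (24.0 to 43.5) in a peak of 2357 bp (chr2:173635442-173637798). The upper bound of 43.5 exceeds the lower bound of 40.1 for Ubb-ps, so these intervals meet. A second peak of Ppp4r1l-ps had a fold enrichment of 13.0.

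The next 10 genes by fold enrichment lay between 20.4 and 24.9. The transcribed pseudogene 4632415L05Rik reached 24.9 (19.4 to 31.5) with 67 fragments, and Gm13697, one of a row of copies described below, 24.8 (19.1 to 31.7) with 62. Gm6125 had 23.0 with 26 fragments over the background of 0.175 seen at the emptiest sites. Gm4617 (22.3), Gm10076 (22.2) and Gm13456 (21.9) had pileups of 88, 64 and 80. The remaining 4 were Gm6055 at 21.3, whose synonym Map1lc3-ps2 names a copy of an autophagy gene, Gm8494 at 20.9, Gm9847 at 20.7 and Gm11263 at 20.4. The intervals of these 10 overlap, so their order carries no weight. Of these 10 genes, 7 had spans under 2 kb, and in Gm6055 the peak covered 621 bp beside a span of 687 bp.

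By pileup the order was different, and the background was often high. Rn18s-rs5, related to the 18S ribosomal RNA, had the most fragments, 157 over a background of 13.0, with a fold enrichment of 11.3 (9.59 to 13.2) in the widest of the pseudogene peaks (chr17:39846221-39848685, 2465 bp). Gm10925 had 147 fragments over a background of 31.5, the highest of the 491, and a fold enrichment of 4.55 (3.85 to 5.34) at chr1:24614062-24614647. Its synonyms include mt-Atp6, the mitochondrial gene of ATP synthase subunit 6, and the peak in the mitochondrial ATP6 itself had 157 fragments over 33.3 and a fold enrichment of 4.61 (3.92 to 5.39). The 2 peaks differed by less than their counting intervals, and reads that match both places could count for either. Gm15772, which has Rpl26 among its synonyms, had 121 fragments over 25.4 and a fold enrichment of 4.63 (3.84 to 5.52). Gm13694 had 133 over 6.34, a fold enrichment of 18.2 (15.3 to 21.6) and the second highest −log10 q, 118. Gm13841 had 100 over 11.0, a fold enrichment of 8.45. The other members among the 10 highest pileups were Ubb-ps, Gm21092 (105), 6820431F20Rik (104), 2610005L07Rik (90 and 88) and Gm4617 (88). By −log10 q, the leaders after Ubb-ps and Gm13694 were Rn18s-rs5 (105), Gm4617 (90.2), Gm13456 (82.4), 4632415L05Rik (76.4), 2610005L07Rik (73.1), Gm21092 (72.9), 6820431F20Rik (72.8), Gm13697 (71.8) and Ppp4r1l-ps (71.4).

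At the other end, 14 peaks (2.85%, 1.71 to 4.73) had a fold enrichment under 4, beside 4.42% of all autosomal peaks, a share inside that interval. The lowest were those of Rpl15-ps3 (2.58, interval 1.49 to 4.22, 14 fragments over 4.81), Rpl6l (3.38, 31 over 8.46) and Gm2011 (3.41, 7 over 1.35). Gm9396, Tmem181b-ps and 2610005L07Rik followed with the same value, 3.43, from 11 fragments over 2.50. Rpl15-ps3 is a copy of a ribosomal protein gene, and Rpl6l carries a ribosomal protein symbol without the ending of a named copy, so it is not in the family counted below.

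Some genes that RefSeq lists as transcribed pseudogenes carry the symbol of an ordinary gene. Magef1, of the melanoma antigen family, had a fold enrichment of 19.2 with 27 fragments. Atp10d, a lipid-transporting ATPase gene, had 3 peaks of 8.92, 5.42 and 5.06 along a span of 95443 bp. Rnls, the gene of renalase, had 5.96 and 4.22 from 6 and 4 fragments. Thap6 (4.68), Sprr2g (6.71), of the small proline-rich proteins of epithelia, Serpina3h (5.96), a serine protease inhibitor gene, and H2-K2 (5.03), of the major histocompatibility complex, rested on 5 to 8 fragments each. The symbols were chosen after their values were seen.

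Families were read from patterns in the symbols of named copies, so a gene of the same kind with another form of symbol is not in the counts. Copies of ribosomal protein genes gave the most members with a peak among the named families. The mRNAs of these proteins are among the most abundant in any cell and have left many processed copies. Of 281 such pseudogenes, 26 had a peak (9.25%, 6.39 to 13.2), beside 4.16% (3.75 to 4.61) of the 8311 pseudogenes in no family. Each had 1 peak, with a median fold enrichment of 6.58 (range 2.58 to 16.0) and a background of 1.40. The highest were Rpl17-ps5 (16.0, 55 fragments over 2.50), Rpl21-ps10 (15.2, 20 over 0.384) and Rpl19-ps11 (14.8, 45 over 2.11).

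Chemosensory receptor genes, which encode smell and pheromone receptors and are transcribed mainly in sensory neurons, had few. A peak was found in 3 of 576 such pseudogenes (0.521%, 0.177 to 1.52): Vmn2r-ps15 (7.67, 17 fragments), Vmn2r-ps11 (5.11, 5 fragments) and Olfr1372-ps1 (5.09, 8 fragments). Vmn2r127, a vomeronasal receptor symbol that the pattern does not hold, had a peak of 4.19 from 4 fragments, and with synonyms read too the share was 4 of 591 (0.677%, 0.264 to 1.73). The intervals of the ribosomal and chemosensory shares lie on either side of that for pseudogenes in no family. The median spans of the 3 groups were 539, 908 and 949 bp. With −log10 q or pileup limits the chemosensory share was 0.174%.

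The other families were small, with wide intervals. The symbols listed for translation factors and Tpt1 had peaks in 2 of 19, Eef2-ps2 (8.00), a copy of an elongation factor gene, and Tpt1-ps3 (5.12), whose parent is not itself a translation factor. Chaperones and cyclophilins had 2 of 20, Hsp25-ps1 (14.2) and Dnajb6-ps (9.69), and 4 of 75 (5.33%, 2.09 to 12.9) with synonyms read too. Cytoskeletal genes had 2 of 12, Tpm3-rs7 (7.50), a tropomyosin copy, and Actg-ps1 (6.50), an actin copy. By these patterns a single gene had a peak among 14 high mobility group copies (Hmgb1-ps1, 20.2), 9 ubiquitin and proteasome copies (Ubb-ps) and 9 histone copies (H2af-ps2, 6.12). The same held for 20 glycolysis copies (Pgam1-ps2, 5.12) and 19 copies of oxidative phosphorylation genes (Cox5b-ps, 5.71). It also held for 9 genes of immunoglobulins, T cell receptors and the major histocompatibility complex (H2-K2), and for 12 zinc finger genes. That last gene was Zfp862-ps, with 4 peaks of 8.28, 11.9, 10.3 and 17.6. None of the 8 copies under the listed RNA-binding and splicing symbols had a peak, which allows a share of up to 32.4%. Outside the patterns, peaks were also found in Znf41-ps (12.4 and 9.46) and Zfa-ps (9.61), both of zinc finger genes, in the histone gene H2ac14 (4.38), in Gpi-ps (9.39), of a glycolytic enzyme gene, and in Ybx1-ps2 (16.3), of an RNA-binding protein gene.

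A pseudogene with a peak often had a parent with a peak. A parent symbol could be read from the names of 57 pseudogenes with a peak, and in 41 the parent had one too (71.9%, 59.2 to 81.9). Among 610 pseudogenes without a peak the parent had one in 302 (49.5%, 45.6 to 53.5). Counted by parent, so that copies of 1 gene counted once within a group, the shares were 31 of 45 (68.9%, 54.3 to 80.5) and 152 of 305 (49.8%, 44.3 to 55.4). There were 324 parents in all, and a parent with copies of both kinds is in both groups. The groups are therefore not separate sets. The latter intervals overlap slightly. Both shares are above that of all protein-coding genes, 42.1%.

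Within these 41 pairs, the pseudogene usually had the lower background and pileup, while the higher fold enrichment was on either side. The background was lower at the copy in 36 pairs and the pileup in 35. With each parent counted once, medians over the 41 copies and 31 parents were 0.577 against 2.69 for background and 11 against 35 for pileup. The fold enrichment was higher at the copy in 19 pairs, with medians of 6.78 for the 41 copies and 8.00 for the 31 parents. The pairs share 31 parents and are not independent. Each pair sets the peak of highest fold enrichment in the copy against that in the parent, and 17 of the 31 parents had several peaks, up to 12 in Alms1, so the parent's pileup and background are those of a selected peak.

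**Figure D4:**
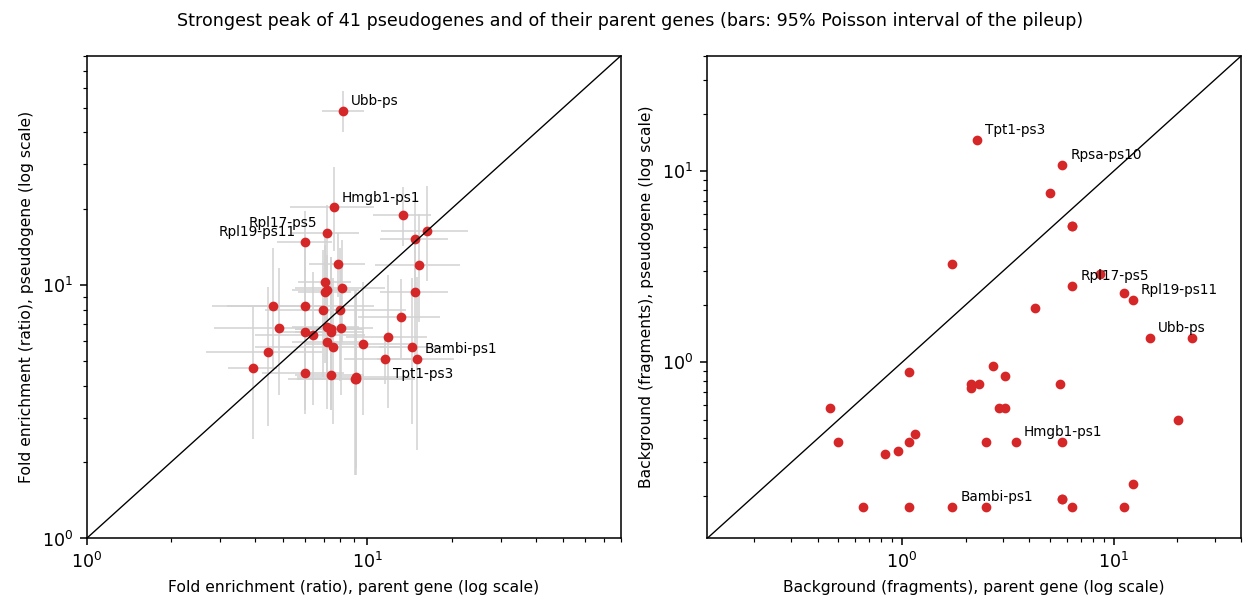
Strongest peak of each of 41 pseudogenes (vertical axes) against the strongest peak of its parent gene (horizontal axes), for fold enrichment (left, a ratio, with 95% Poisson intervals of the pileup) and background (right, fragments), all on log scales; the line marks equal values. Points lie on both sides of the line for fold enrichment, and 36 of 41 lie below it for background.

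In 4 pairs the copy was higher with counting intervals that did not meet. The Ubb peak had a fold enrichment of 8.23 (6.88 to 9.76) from 129 fragments over 14.8, while Ubb-ps had 48.6 from 113 over 1.35: nearly equal pileups on backgrounds that were far apart. Hmgb1-ps1, a copy of the gene of a chromatin protein, had 20.2 (13.6 to 29.1) against 7.62 (5.32 to 10.6) for Hmgb1. Rpl17-ps5 had 16.0 (12.1 to 20.7) against 7.18 (5.40 to 9.37), and Rpl19-ps11 had 14.8 (10.9 to 19.7) against 6.01 (4.78 to 7.48).

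In 3 pairs the parent was higher in the same way. Tpt1-ps3 had 5.12 (4.07 to 6.37) against 11.6 (8.27 to 15.9) for Tpt1, the gene of a translationally controlled tumour protein, with 79 fragments over 14.6 at the copy and 37 over 2.27 at the parent's strongest peak. The other 4 peaks of Tpt1 had fold enrichments of 3.87 to 6.55, pileups of 45 to 81 and backgrounds of 8.77 to 20.2, ranges that hold the copy's values. Smarce1-ps1 had 5.71 (2.82 to 10.6) against 14.5 (11.1 to 18.6) for Smarce1, which encodes a subunit of the SWI/SNF chromatin remodeller. Bambi-ps1 had 5.11 (2.23 to 10.8) against 15.0 (10.8 to 20.3) for Bambi, a pseudoreceptor that dampens TGF-beta signals, and rested on 5 fragments.

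In the other 34 pairs the intervals met. Some copies matched the parent closely, as Ybx1-ps2 (16.3, parent 16.3), Alms1-ps1 (15.2, parent 14.9), Tgif2-ps2 (7.95, parent 8.00) and Usf2-ps1 (6.36, parent 6.42). The Alms1-ps1 summit lay 151 bp from the span of Alms1 itself, and its peak (chr6:85726423-85727298) reached into that span. Fragments of Alms1 transcripts could not be told apart there, so this match is not one between separate places. Ncoa4-ps, a copy of the gene of a ferritin receptor, had 18.8 (14.2 to 24.5) against 13.4 (10.5 to 16.9) for Ncoa4. Ctdsp2-ps had 12.1 against 7.88, Rybp-ps 11.9 against 15.3, Dnajb6-ps 9.69 against 8.13, Eef2-ps2 8.00 against 6.99 and Oaz1-ps 8.27 against 6.01. Tpm3-rs7 had 7.50 against 13.2, Cdv3-ps 6.22 against 11.9, Pisd-ps1 5.83 against 9.63, Cox5b-ps 5.71 against 7.55 and Mrps36-ps1 4.26 against 9.07. Ifi203-ps, from the interferon-inducible genes, had 6.78 against 4.84, and Rab11b-ps2 5.42 against 4.42. The ribosomal pairs ranged from Rpl13-ps6 (10.3, parent 7.08) and Rpl39-ps (8.24, parent 4.63) to Rpl36a-ps1 (6.78, parent 8.06), Rps6-ps1 (4.69, parent 3.93) and Rpl23a-ps3 (4.49, parent 6.00).

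Several parents had more than 1 copy with a peak. Rpl17 had 4 of its 10 named copies, at 16.0, 9.53, 6.81 and 5.98, spread on either side of the parent's 7.18. Rpsa, the gene of the laminin receptor and ribosomal protein SA, had 4 of 12, at 6.71, 6.71, 6.50 and 4.42, all below the parent's 7.43 (5.54 to 9.78). The interval of the lowest, Rpsa-ps10 (3.31 to 5.78), did not reach 7.43 but met the lower end of the parent's interval. Rpl13 had 2 of 5 (10.3 and 9.36), Rpl19 2 of 11 (14.8 and 6.50), Alms1 2 of 2 (15.2 and 9.36), and Ppp1r2 2 of 6 (4.33 and 4.26, parent 9.15). Rps13 (5.78 and 5.31) and Rps18 (6.50 and 5.78) had 2 of 5 copies each and no peak of their own. In all, 16 pseudogenes had a peak while their parent had none, with fold enrichments from 2.58 to 15.2. The highest were Rpl21-ps10 (15.2), Nlrp5-ps (13.7), Ccl19-ps2 (10.8) and Rps19-ps3 (9.72).

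Along the span, summits were found everywhere. Cut into 5 equal stretches from the low to the high coordinate, the spans held 100, 131, 76, 94 and 90 summits, with a median place of 0.436, and strand was not analysed here. In spans under 2 kb (254 peaks) the peak covered a median of 36.9% of the span and in 80 more than 50%, so that the peak was much of the gene. In spans of 20 kb or more (70 peaks) the median distance from the nearer end was 7214 bp. In all, 412 peaks (83.9%, 80.4 to 86.9) lay wholly inside the span.

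The rule leaves out summits inside a protein-coding span, and 259 of the 308 autosomal peaks in shared pseudogene spans lay in one. Among the peaks it keeps, the median distance from a summit to the nearest protein-coding span was 28978 bp, and 74 (15.1%, 12.2 to 18.5) lay within 5 kb, beside 30.0% (26.7 to 33.5) of long non-coding RNA peaks and 28.3% (26.4 to 30.3) of peaks outside spans. With shared spans counted, the share was 42.2% (38.8 to 45.6) for pseudogenes and 67.8% (65.5 to 70.0) for long non-coding RNA genes, so pseudogenes then lay above the peaks outside spans and still below long non-coding RNA genes. The share for transcribed pseudogenes was 22.0% (14.7 to 31.5). The closest were Gm21028, 4 bp from Zfp977, Tmem181b-ps, 77 bp from Dynlt1b, Alms1-ps1, 151 bp from Alms1, and Gm12184, 152 bp from Trim7. These 4 are named because they were the closest. The peaks of Tmem181b-ps, Alms1-ps1 and Gm12184 reached into the neighbour's span. In all 4, a transcript of the neighbour could not be told apart from the pseudogene's own.

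Some pseudogenes carried rows of peaks. Gm39743, a span of 7973 bp on chromosome 1, held 8, with fold enrichments from 4.68 to 11.6 and a highest pileup of 68. Gm43828 (6209 bp, chromosome 5) held 6 between 6.17 and 13.8. Gm2058 held 4, led by 17.8, within 3198 bp. Of the genes with 3 peaks, Gm42267 reached 18.1, 11.7 and 8.67. Only 15.8% of its peak of 18.1 and 33.0% of that of 8.67 lay inside its span. Gm5628 had 13.7, 13.0 and 11.3 within 1206 bp, Gm6125 23.0, 8.51 and 5.11, and Alms1-ps1 15.2, 7.43 and 6.50. Gm20590 had 12.6, 11.1 and 7.65, and Gm11847 12.4, 8.30 and 5.75. Gm6809 had 10.8, 6.98 and 4.44, Gm21093 9.46, 5.57 and 4.88, LOC108169009 7.65, 6.77 and 6.50, Gm20008 7.15, 5.26 and 4.04, Gm46349 6.81, 6.81 and 5.11, and Tmem181c-ps 6.42, 4.91 and 4.33. Atp10d and Zfp862-ps were described above, and the others belong to groups of copies.

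Some neighbouring pseudogenes of like span had peaks at the same place. They are called copies by span length and nearness alone, since their sequence was not read. Of the 388 genes, 21 (with 32 peaks) had another pseudogene with a peak within 2 Mb whose span was equal to within 1%, making 21 pairs. In 15 of these pairs at least 1 summit matched to within 50 bp, 13 counted from the same end and 2 from opposite ends. A row of copies on chromosome 2 gave 10 of the 21 pairs and 8 of the matches, and 3 copies on chromosome 8 gave 3 pairs, all matched. Of the remaining 8 pairs 4 matched, 2 of these only from opposite ends. How often summits in unrelated spans would match in this way was not tested.

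The clearest row was on chromosome 2, where 7 pseudogenes of exactly 3054 bp follow each other with starts 5810 bp apart, and 5 had peaks. A summit lay 2587 to 2651 bp from the low-coordinate end in all 5, and a second one 1193 to 1258 bp from it in 3. At the first place the fold enrichment was 9.23 in Gm13698, 13.8 in Gm13693, 18.2 in Gm13694, 24.8 in Gm13697 and 19.5 in Gm13691, from 10, 17, 133, 62 and 32 fragments. At the second it was lower in each of the 3 genes that had it, 7.26 in Gm13694, 7.19 in Gm13697 and 5.71 in Gm13691. Pileups differed more between the copies than fold enrichments did. The remaining copies, Gm13695 and Gm13696, had none.

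**Figure D5:**
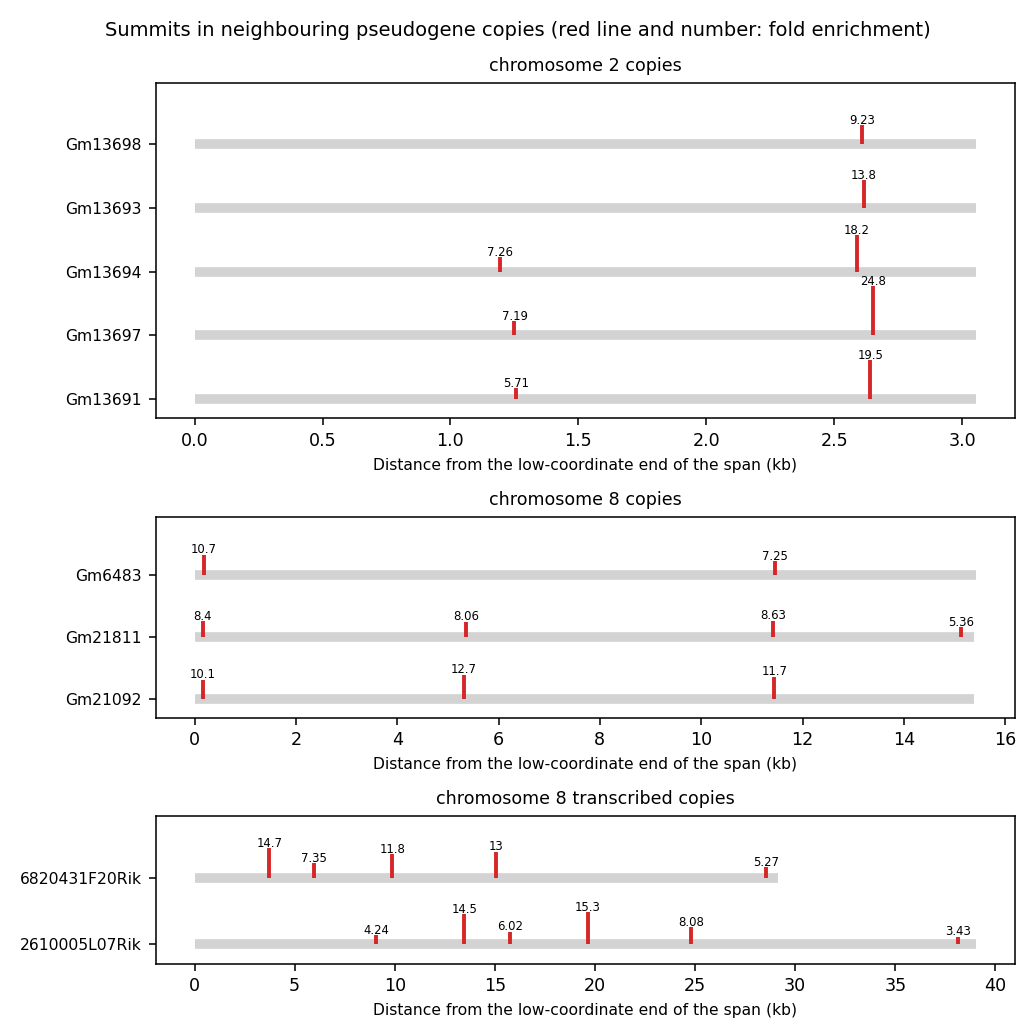
Summits along the spans of neighbouring pseudogene copies on chromosome 2 and chromosome 8 (distance from the low-coordinate end of the span, kb). Red lines mark summits, with a height in proportion to the fold enrichment printed above each; in the 5 chromosome 2 copies with peaks, a summit falls 2587 to 2651 bp from that end.

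On chromosome 8, Gm6483, Gm21811 and Gm21092 have spans of 15423, 15384 and 15374 bp. Each had a summit 157 to 177 bp from the low end (fold enrichments 10.7, 8.40 and 10.1) and each another 11414 to 11449 bp from it (7.25, 8.63 and 11.7). Gm21811 and Gm21092 shared another at 5360 and 5317 bp (8.06 and 12.7), and Gm21811 had a further one at 15122 bp (5.36).

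Between these genes lie the transcribed pseudogenes 6820431F20Rik, with 5 peaks (14.7, 7.35, 11.8, 13.0 and 5.27), and 2610005L07Rik, with 6 (4.24, 14.5, 6.02, 15.3, 8.08 and 3.43, in order of coordinate). The 3 summits with the highest pileups were 6155 and 5164 bp apart in 6820431F20Rik and 6151 and 5177 bp apart in 2610005L07Rik. In Gm21811 the gaps were 5199 and 6054 bp, and in Gm21092 5160 and 6124 bp, nearly the same 2 distances in the opposite order. Pileups at these 12 summits ran from 30 to 105 fragments over backgrounds of 2.47 to 8.07, all above the upper quartiles of the 491 peaks (26 and 1.73). What near-identical sequence and the placing of reads contribute to these rows was not tested.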

How the data were processed

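PolyA RNA of uterus was extracted with TRIzol and built into directional libraries, per the labels' protocols. The submitters' processing notes list the aligner HISAT2 (2.2.1), the peak caller MACS3 (3.0.0a7) and mm10; for options, pooling and reads with several places nothing is given in the sources used here. The deposited peak list of the IP sample holds a fold enrichment (a ratio), p-values and q-values as −log10, and a score, all set by the authors' peak caller and used within that list alone, for description, ranks and limits. The input sample's own data were not analysed here. The depth of the libraries is not known from these files.

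Each summit's pileup and background were recovered from its deposited fold enrichment and Poisson p-value, after a check on simulated data. The pileup was whole, to within 0.05 of a step, for all but 2 of 26584 peaks, neither of them in a pseudogene by the rule used. Intervals of fold enrichments are exact Poisson intervals of the pileup with the background as known, and shares have Wilson intervals, both at 95%. PCR copies are not independent molecules, so both cover counting error only.

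Genes came from a RefSeq table of 49997 genes on GRCm38.p6, with spans but without strand, exons, descriptions or sequence. Places along genes were therefore counted from the low coordinate, families were read from symbols alone, and the planned motif count around summits was not run. Uterine marker genes were listed from general knowledge. A parent is the protein-coding gene whose symbol precedes -ps or -rs. Named genes are the 12 with the highest fold enrichment, the 10 highest by pileup and by −log10 q, those with 3 or more peaks, the 5 lowest by fold enrichment, pairs in which pseudogene and parent both had a peak, and the 3 highest of each family. Other genes were named after their values were seen. The members and lists were chosen with earlier results of these data known. Alternatives were limits on −log10 q, fold enrichment and pileup, a 50% overlap rule, shared spans, the sex chromosomes, the pseudocount of 1, 1 peak per gene and the distance to coding genes. Scripts ran in Python 3.11.15 with scipy 1.17.1, pandas 2.3.3, matplotlib 3.10.9 and numpy 2.4.6.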

Additional observations from a re-analysis of the deposited data

How the results depend on the processing

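For the number of peaks no error could be estimated, so a limit of 1.5 times the main count was used. It stayed within this limit under 6 of 7 alternatives, the lowest being 337 with a pileup of at least 10. Of the other 50 recomputed values, 38 stayed inside the 95% interval of the share or median and 12 did not. Counting spans shared with other genes raised the number of pseudogene peaks from 491 to 799, the share of pseudogenes with a peak to 6.62%, that of ribosomal protein copies to 14.6% and the share of peaks within 5 kb of a protein-coding span to 42.2%, above the 28.3% of peaks outside spans, which the main 15.1% lies below. With −log10 q of at least 5 the median fold enrichment was 7.91 and the share of pseudogenes with a peak 3.51%; with a pileup of at least 10 they were 8.81 and 2.84%. Both limits took the chemosensory share to 0.174%. Without the pseudocount the median fold enrichment was 19.1, and the order of the groups of peaks changed. Within 1 kb and 10 kb of a protein-coding span lay 2.65% and 26.7% of the peaks. The share of parents with a peak and the place along the span moved little under the alternatives run on them. Leaving out copies of equal span, taking the biotype pseudogene alone, leaving out peaks near coding genes, reading families from synonyms and the comparison groups' own values under these settings were chosen after seeing the data. No paired analysis was possible because each group has 1 sample, and for the same reason no sample could be left out. The motif share and its window were not run for want of a genome. With a median pileup of 14 fragments, most single fold enrichments have intervals that span a factor of 2 or more.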

Other observations

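Outside the rule, 25 peaks on X (median fold enrichment 6.98) and 5 on Y lay in the span of a single pseudogene. A further 308 autosomal peaks had their summit in a pseudogene span that overlaps another gene, with a median fold enrichment of 6.58. Of these, 259 lay in a protein-coding span as well, and to which gene such a peak belongs cannot be told apart from spans alone.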
